A study of Ursus arctos with 5 samples.

Results

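Lipid synthesis in grizzly bear muscle was followed through every transcript named SCD, FASN, FADS1, ACSS2, AACS or INSIG1. These names picked 6 transcripts, 1 per gene, of 26614 in the deposited table, of which 9093 carry a gene name and stand for 4873 genes. The tissue was the gastrocnemius, a calf muscle, of 2 grizzly bears (Ursus arctos) called Tia and Star, sampled in October, when they were active (non-hibernating), and in February, when they were hibernating. Each bear gave 1 library of single-end reads per state, so each state holds 2 libraries. In the changes given per bear, each bear serves as its own control. The labels give every sample as adult, 10 years, while the study describes a subadult and an adult, and the age classes were not used here. The labels name no other treatment. By the study's methods, feeding was stopped from early November until March. For the biopsies the bears were anesthetized with tiletamine and zolazepam, at a lower dose in hibernation, and with isoflurane. Feeding and dose thus changed with the state and cannot be told apart from it. The pooled and paired-end libraries were not analysed here.

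The 6 genes cover successive steps of lipid synthesis. Fatty acid synthase (FASN) builds palmitate from acetyl and malonyl units, and stearoyl-CoA desaturase (SCD) places a double bond in the saturated chain, which yields palmitoleate and oleate. FADS1 desaturates long polyunsaturated chains on the way to arachidonic acid. ACSS2 and AACS supply activated carbon in the cytosol, ACSS2 from acetate and AACS from the ketone body acetoacetate. INSIG1 retains the complex of SCAP and the sterol regulatory element-binding proteins (SREBPs) in the endoplasmic reticulum. The genes are known targets of SREBPs, INSIG1 included, which closes a feedback loop. A hibernating bear does not eat and lives on its fat stores, and fat synthesis is known to be low in fasted animals.

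SCD and FASN were the members that stood far apart between the states, and most of that distance lay in Tia. In hibernation SCD was 36.3-fold and FASN 27.9-fold lower in Tia, and 3.63-fold and 1.96-fold lower in Star. AACS was lower in hibernation in both bears by a smaller margin, INSIG1 and FADS1 were slightly lower, and ACSS2 went in opposite directions in the 2 bears. Only transcripts at 1 RPKM or more in every library are listed. This floor limits the falls that genes of low active level, FADS1 above all, could show beside those of SCD and FASN. Values are RPKM, a read count per transcript length and library depth. They are set per length. Whether the cDNA of these libraries had been normalized by nuclease, which would lower abundant transcripts and compress folds and distances between genes, is not given in the sources used here.

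Steps in the deposited values placed the 4 libraries at 44.7 to 54.2 M aligned reads, and 92.8% to 99.6% of about 500 low values per library were whole within 0.1 read. The table lists transcripts at an RPKM of at least 1 in all 4 libraries, so a gene below that level in any library was not analysed here. This floor also limits the falls that can be listed, most of all for transcripts of low active level. The median RPKM of the listed transcripts was 3.51 in active Tia and 3.36 in active Star. Only 9093 of the 26614 transcripts carry a gene name, so a gene can also be missing by name. A gene that is not listed is thus not shown to be unexpressed. Of the markers that define skeletal muscle fibres, MYH2 and TTN were among the listed transcripts and ACTA1 and CKM were not. The median log2 change over all transcripts was 0.10 in Tia and 0.16 in Star. Median-ratio scaling moved the changes by -0.11 in Tia and -0.22 in Star, and upper-quartile scaling by -0.19 and -0.22. In these bulk samples fewer cells of a type and less RNA per cell cannot be told apart.

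SCD (isotig20691, 5400 bases) stood at 189 RPKM in Tia when active and at 5.20 RPKM in hibernation. In Star it stood at 10.1 RPKM when active and at 2.79 RPKM in hibernation. Both active libraries were above both hibernating libraries, and the active library of Tia was far above the other 3. The hibernating level was 36.3-fold lower in Tia (95% counting interval 34.5 to 38.3) and 3.63-fold lower in Star (3.35 to 3.93). These intervals cover counting error in 2 libraries and do not compare the states. In Tia's active library SCD took 0.102% of the aligned reads, about 53621 reads, and was within the top 1.52% of transcripts by RPKM. In Star's hibernating library it took about 816 reads, and 68.7% of transcripts were at or above it. The mean log2 change on the scale of log2(RPKM + 0.5) was -3.37 ± 1.24 (standard error, n = 2 bears; adjusted p = 0.582 from limma over all transcripts). This was the lowest mean change of all 26614 listed transcripts, among which the floor limits falls from low active levels. Standard errors, p-values and intervals of the mean change come from a moderated fit by limma, here and below. That fit took the libraries as unpaired unless a block is named.

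FASN (isotig21339, 3281 bases) followed the same order of libraries. It was at 113 RPKM in active Tia and 4.05 RPKM in hibernating Tia, and at 5.79 RPKM in active Star and 2.96 RPKM in hibernating Star. The states did not overlap, and active Star and hibernating Tia were the closest pair across the states. The hibernating level was 27.9-fold lower in Tia (counting interval 25.8 to 30.2) and 1.96-fold lower in Star (1.75 to 2.19). The mean log2 change was -2.75 ± 1.23 (standard error, n = 2 bears; adjusted p = 0.601, limma), rank 6 from the lowest. The 95% interval of the mean log2 change reached from -5.78 to 0.28, against -6.43 to -0.32 for SCD, both without adjustment for the number of transcripts.

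The ratio of SCD to FASN was steadier than either gene. It was 1.67 in active Tia, 1.28 in hibernating Tia, 1.75 in active Star and 0.943 in hibernating Star. Over the same 4 libraries SCD spanned 67.7-fold from its lowest to its highest level and FASN 38.1-fold. SCD was thus the higher of the pair in 3 libraries and slightly below FASN in hibernating Star.

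**Figure D1:**
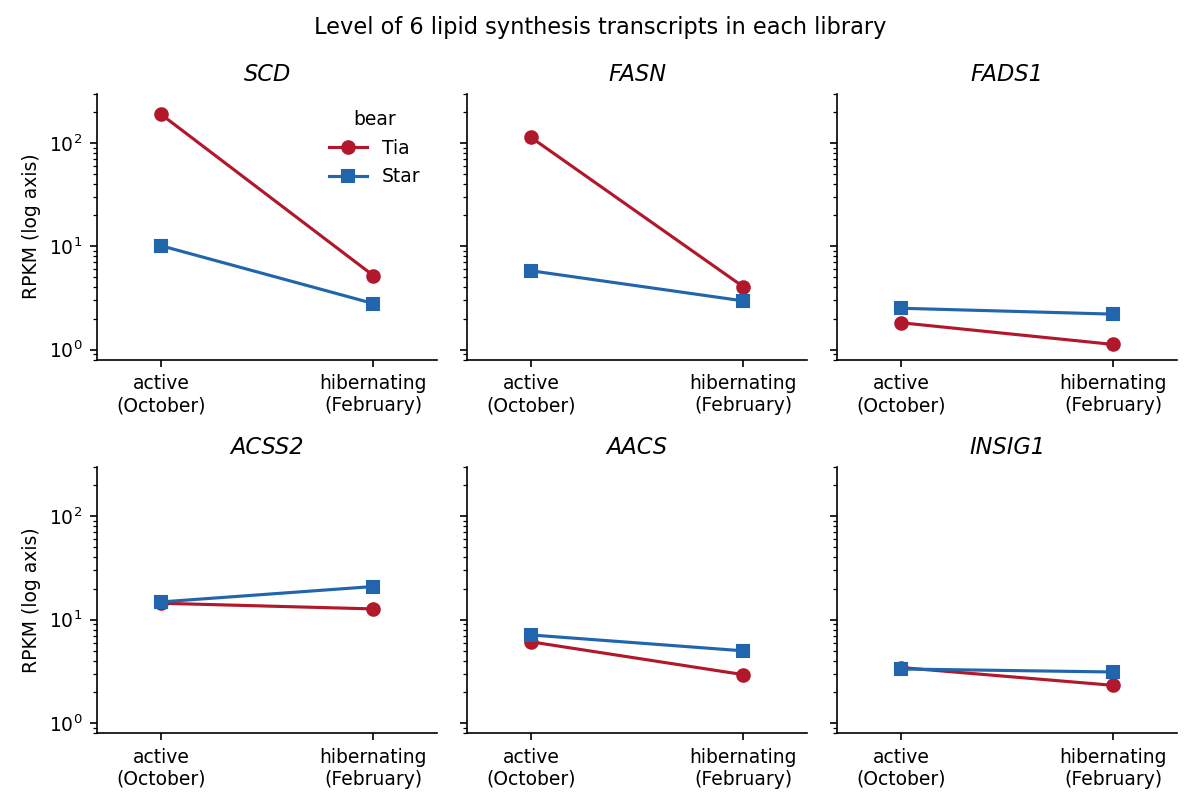
RPKM on a log axis of the 6 transcripts in each library, with a line joining the active (October) and hibernating (February) library of Tia (red circles) and Star (blue squares). SCD and FASN start at 189 and 113 RPKM in active Tia and lie between 2.79 and 5.20 RPKM in all hibernating libraries, while the other 4 genes lie between 1.12 and 21.0 RPKM throughout.

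FADS1 (isotig30643, 837 bases), the desaturase of polyunsaturated chains, was the lowest member in all 4 libraries. It was at 1.82 RPKM in active Tia, 1.12 RPKM in hibernating Tia, 2.51 RPKM in active Star and 2.21 RPKM in hibernating Star. Star was above Tia in both states, and the states overlapped, since hibernating Star was above active Tia. The values rest on about 47 to 100 reads per library. The level in hibernation was 1.62-fold lower in Tia (counting interval 1.12 to 2.38) and 1.14-fold lower in Star (0.851 to 1.53), an interval that includes no change. The mean log2 change was -0.34 ± 0.32 (standard error, n = 2 bears; adjusted p = 0.749, limma), and without the hibernating library of Tia it was 0.03. With 1.12 RPKM in hibernating Tia, the gene lay just above the level at which transcripts are listed. A fall much beyond the one seen in Tia could thus not have been listed.

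ACSS2 (isotig13449, 377 bases), the synthetase that activates acetate, was the highest member in every library except active Tia. It was at 14.4 RPKM in active Tia and 12.7 RPKM in hibernating Tia, and at 14.9 RPKM in active Star and 21.0 RPKM in hibernating Star. The active libraries differed by 1.03-fold and the hibernating ones by 1.65-fold, with Star the higher. Hibernation over active was 0.881 in Tia (counting interval 0.738 to 1.05) and 1.41 in Star (1.21 to 1.66), so the bears went opposite ways. The mean log2 change was 0.15 ± 0.29 (standard error, n = 2 bears; adjusted p = 0.852, limma), and its sign turned under median-ratio scaling (-0.01) and upper-quartile scaling (-0.05). The transcript is the shortest of the 6.

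AACS (isotig21539, 3041 bases), which activates acetoacetate, was lower in hibernation in both bears. It was at 6.12 RPKM in active Tia and 2.94 RPKM in hibernating Tia, and at 7.13 RPKM in active Star and 5.003 RPKM in hibernating Star. The groups did not overlap, and Star was above Tia in both states, the reverse of SCD and FASN. The hibernating level was 2.08-fold lower in Tia (counting interval 1.86 to 2.33) and 1.42-fold lower in Star (1.297 to 1.56). The mean log2 change was -0.71 ± 0.31 (standard error, n = 2 bears; adjusted p = 0.597, limma), and 2.07% of all transcripts had a mean change as low or lower. Without the hibernating library of Tia it was -0.37.

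INSIG1 (isotig22184, 2506 bases), the retention protein, differed by 1.03-fold between the bears in activity. It was at 3.45 RPKM in active Tia, 2.32 RPKM in hibernating Tia, 3.34 RPKM in active Star and 3.12 RPKM in hibernating Star. The states did not overlap, but in Star they differed by only 1.07-fold, with a counting interval of 0.928 to 1.23 that includes no change. In Tia the hibernating level was 1.49-fold lower (1.28 to 1.73). The mean log2 change was -0.29 ± 0.26 (standard error, n = 2 bears; adjusted p = 0.741, limma), and without the hibernating library of Tia it was -0.10.

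**Figure D2:**
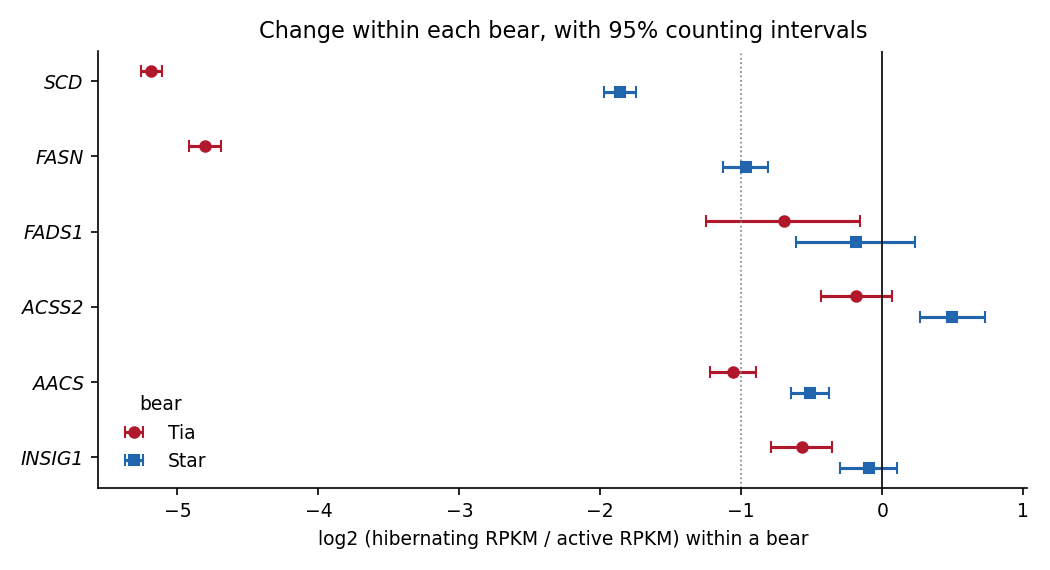
Log2 ratio of hibernating over active RPKM within Tia (red circles) and Star (blue squares) for each member, with 95% counting intervals as bars, a solid line at no change and a dotted line at 2-fold lower. SCD lies beyond the dotted line in both bears, FASN in Star lies at 1.96-fold lower, and ACSS2 lies on opposite sides of no change.

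Of the 6 members, 5 (all but ACSS2) were lower in hibernation in both bears, against 17.9% of all transcripts lower in both. Under median-ratio scaling and upper-quartile scaling the members' count was again 5, but the share of all transcripts was 33.6% and 36.3%. For 4 members (SCD, FASN, AACS and INSIG1) both hibernating values were below both active values, which held for 8.4% of all transcripts. SCD was at least 2-fold lower in both bears, which held for 0.286% of transcripts, a share without those that fell below the listing floor. FASN missed that threshold in Star and passed it under both scalings. The median of the members' mean log2 changes was -0.52, against 0.12 over all transcripts. The members were chosen with earlier results of these data known, so these counts and shares describe them and are no test.

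The study's own criterion was a score of at least 0.8. Here it is the share of between-bear differences within a state that the change of a transcript's mean RPKM between states equals or exceeds. This holds for both the log2 ratio and the difference of the state means, so the score does not use the mean log2 change given above. The active means of SCD and FASN, 99.5 and 59.3 RPKM, were set mostly by Tia. SCD reached 0.991 and FASN 0.986. AACS had a score of 0.698, INSIG1 0.350, FADS1 0.316 and ACSS2 0.314. So 2 of 6 members were called lower by the score, as were 1.21% of all transcripts. That share also leaves out transcripts that fell below the listing floor. Of all transcripts past the score 32.7% were lower in hibernation, against 57.7% under median-ratio and 62.0% under upper-quartile scaling. Without the active library of Tia 1 of the 6 members was called lower.

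By limma 0 of the 6 members had an adjusted p under 0.05, and 0% of all transcripts did. The lowest adjusted p in the table was 0.577. At an unadjusted p under 0.05 there were 2237 transcripts, 8.41% of the table, and 1 of the members, SCD. An exact permutation test of 2 against 2 libraries cannot give a two-sided p below 0.333, so none was run.

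**Figure D3:**
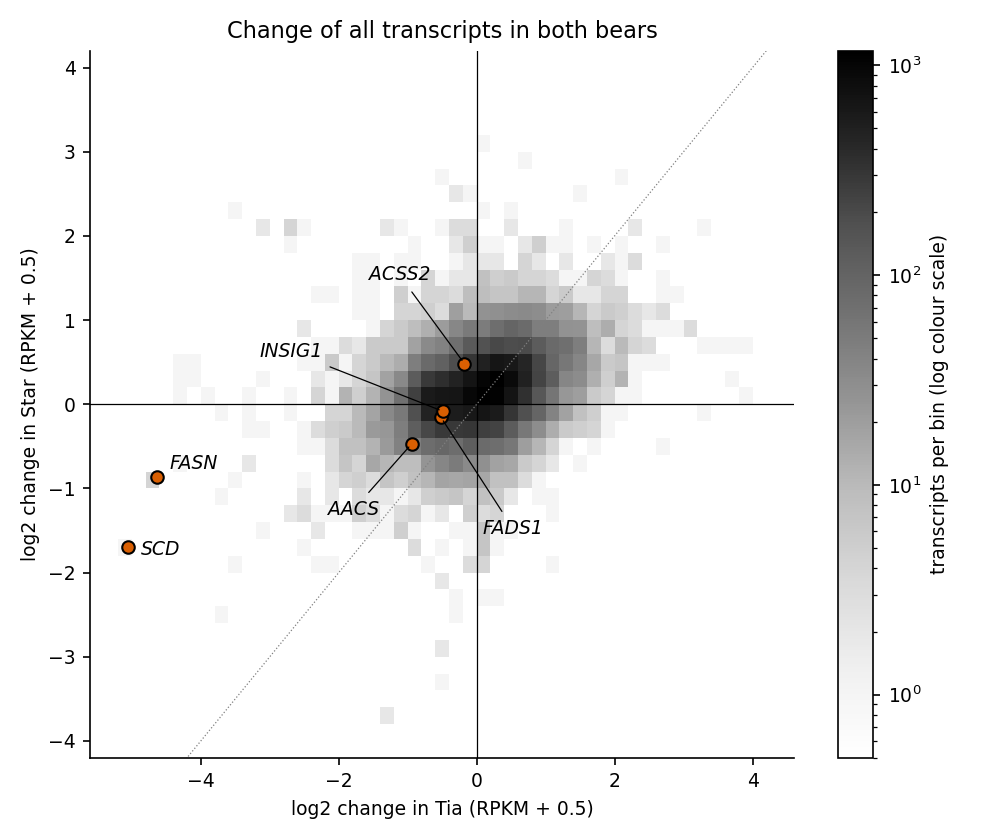
Log2 change, hibernating minus active on the scale of log2(RPKM + 0.5), in Tia (x axis) against Star (y axis), with grey bins shaded by the number of transcripts, the members in orange, and a dotted line of equal change in both bears. SCD and FASN lie at -5.05 and -4.64 in Tia and at -1.69 and -0.86 in Star, left of the dense centre in which INSIG1, FADS1 and ACSS2 lie.

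For SCD and FASN the bears stood further apart in activity than in hibernation. SCD was 18.7-fold and FASN 19.5-fold higher in Tia than in Star in October, and 1.86-fold and 1.37-fold higher in February. By the ratio of Tia to Star in October, FASN ranked 7 and SCD 8 from the highest over the whole table. For the other 4 members it was the reverse: the bears were within 1.38-fold of each other in October, and in February Star was the higher by 1.35-fold (INSIG1) to 1.97-fold (FADS1). Over all transcripts the median absolute log2 difference between the bears was 0.27 in activity and 0.29 in hibernation. Without the active library of Tia the mean log2 change of SCD was -1.29 and that of FASN -0.67 (adjusted p = 0.862 for both, limma, with the lone active library taken to vary like the others). Without the active library of Star they were -5.45 and -4.84. Over all alternatives the adjusted p ranged from 0.236 to 0.862 for SCD and from 0.202 to 0.862 for FASN.

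In order of level, the members changed places between the states. In active Tia the order was SCD, FASN, ACSS2, AACS, INSIG1, FADS1, and in active Star it was ACSS2, SCD, AACS, FASN, INSIG1, FADS1. In hibernation ACSS2 led in both bears and FADS1 was last. SCD (2.79 to 5.20 RPKM), AACS (2.94 to 5.003), FASN (2.96 to 4.05) and INSIG1 (2.32 to 3.12) overlapped in their ranges over the bears in hibernation. Within each bear AACS was above INSIG1, while the order of the other pairs among these 4 differed between the bears. SCD over AACS was 30.9 in active Tia, 1.77 in hibernating Tia, 1.42 in active Star and 0.558 in hibernating Star. In activity AACS, INSIG1 and FADS1 kept apart from each other, with ranges that did not overlap.

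Markers of other cell types that muscle samples can hold were read beside SCD and FASN. Of 18 fat cell markers, 2 were among the listed transcripts, LPL and PLIN4, and none of the 6 defining ones (ADIPOQ, PLIN1, FABP4, CIDEC, LEP and CFD) were. Their summed level was 191 RPKM in active Tia, 126 in hibernating Tia, 95.6 in active Star and 125 in hibernating Star, so the states overlapped. LPL, the lipase that frees fatty acids from circulating triglyceride, was at 120 RPKM in active Tia, 63.4 in hibernating Tia, 18.8 in active Star and 19.8 in hibernating Star. Of 10 fibroblast and matrix markers 4 were listed, and their summed level was 337, 277, 160 and 230 RPKM in the same order of libraries. COL1A1 (isotig14133), a chain of fibrillar collagen, was at 193 RPKM in active Tia and at 10.95, 6.79 and 9.15 RPKM in the other 3. S100B, a Schwann cell marker and the only listed one of 7 nerve markers, was at 13.1 RPKM in active Tia and 2.12, 1.19 and 3.44 RPKM in the others. FBN1, of the fibroblast and matrix list, was at 24.9, 7.58, 14.1 and 7.27 RPKM. It was highest in active Tia and lower in hibernation in both bears. Other markers of the same lists were not highest there. COL3A1 (isotig35092, 618 bases) was at 116, 254, 136 and 210 RPKM. COL1A2 (contig04590, 925 bases) was at 2.59, 3.995, 3.15 and 3.59 RPKM, and both were lowest in active Tia. PLIN4 was at 71.2, 62.3, 76.8 and 105 RPKM. Other COL3A1 transcripts went both ways, with mean log2 changes such as -0.45 (isotig08494) and 0.58 (isotig25626). Another COL1A2 transcript (isotig30823) had a mean log2 change of -0.32. Among the listed fat cell, matrix and nerve markers, LPL, COL1A1, FBN1 and S100B were thus highest in the library in which SCD and FASN were highest. The transcripts read for COL3A1, COL1A2 and PLIN4 were not, and the part of these markers in the result was not tested. Of 10 endothelial markers 4 were listed, with sums of 37.1, 32.9, 21.9 and 27.7 RPKM. FLT1 and PECAM1 were highest in active Tia, EMCN and TIE1 in hibernating Tia. Of 15 markers of the muscle fibre itself 7 were listed, with sums of 13734, 11238, 17021 and 15801 RPKM. By the transcripts read, MYH7 and TTN were highest in active Tia, and ATP2A1, MYH1, MYH2, RYR1 and TNNC2 were not. Of 11 blood and macrophage markers CD68 was listed, at 3.94, 6.41, 3.28 and 7.12 RPKM, higher in hibernation in both bears.

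The genes whose profile over the 4 libraries was most like that of SCD were FASN, COL1A1, TFRC, SERPINF1 and ACOT11. Likeness was the distance between log2(RPKM + 0.5) values centred on each gene's mean, over 4 libraries, with each of 4873 genes read from its transcript of most reads. The values were not scaled by the size of a gene's changes, so genes that change much have few near neighbours. FASN was at a distance of 0.68 from SCD and COL1A1 at 1.63, and no other gene than FASN was within 1. The genes most like FASN were SCD, COL1A1 (1.00), SERPINF1, SPARC and TFRC. TFRC, the transferrin receptor, was at 64.9 RPKM in active Tia, 15.7 in hibernating Tia, 16.8 in active Star and 4.30 in hibernating Star. ACOT11, a thioesterase that releases fatty acids from CoA, was at 24.7, 5.29, 7.42 and 3.12 RPKM in that order. By these transcripts both were lower in hibernation in each bear, whereas COL1A1 was higher in Star in hibernation by 0.40 on the log2 scale. Another ACOT11 transcript (isotig30811) had a mean log2 change of 0.03. SERPINF1, a secreted serpin, was at 30.0, 6.56, 4.26 and 2.74 RPKM.

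**Figure D4:**
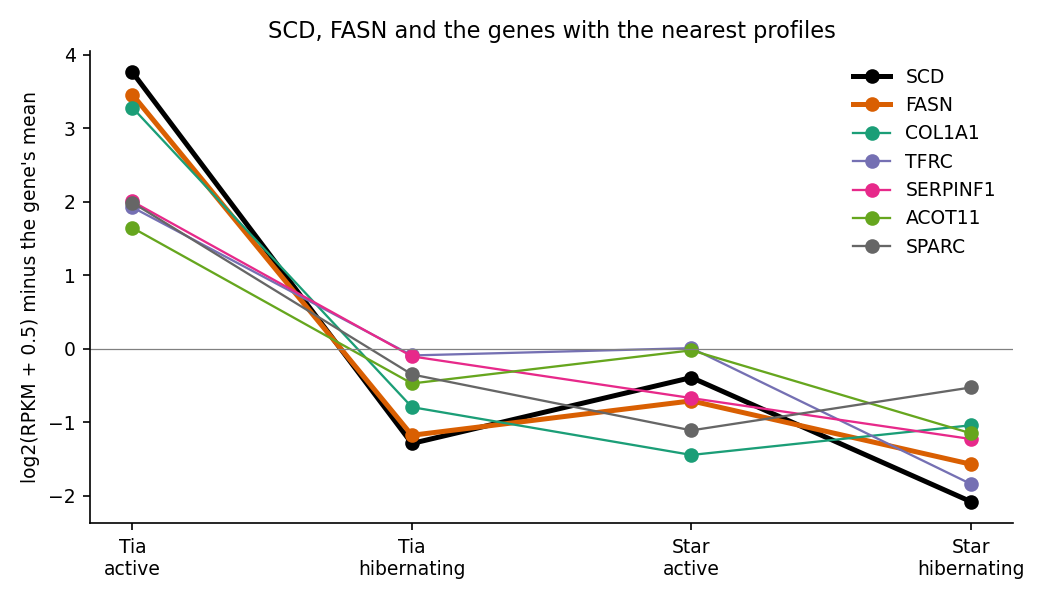
Log2(RPKM + 0.5) minus each gene's mean over the 4 libraries for SCD (black), FASN (orange) and the genes nearest to either. All 7 are highest in active Tia, and COL1A1 and SPARC are higher in hibernating than in active Star while the others are lower.

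Other genes of fatty acid synthesis, elongation and desaturation stood on both sides of no change. Of 38 genes on that list, which leaves out the members, 15 were among the listed transcripts. By the transcript with the most reads, 2 were lower and 7 higher in hibernation in both bears, and under median-ratio or upper-quartile scaling 4 and 4. Over all 4873 named genes, read the same way, 16.1% were lower and 48.7% higher in both bears, against 31.2% and 30.4% under median-ratio and 34.6% and 27.9% under upper-quartile scaling. The shares of this list, 13.3% lower and 46.7% higher, were near those of all named genes. The median of their mean log2 changes was 0.07, against 0.15 over all named genes. Only TKT, transketolase of the pentose phosphate pathway, passed a call rule, with a score of 0.819. It was at 22.2 RPKM in active Tia, 8.49 in hibernating Tia, 7.97 in active Star and 7.61 in hibernating Star, so that the distance lay in Tia (adjusted p = 0.683, limma), and without the active library of Tia it was not called.

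Relatives of the members were listed too. SCD5, the other stearoyl-CoA desaturase, was at 1.62 RPKM in active Tia, 3.70 in hibernating Tia, 1.27 in active Star and 1.73 in hibernating Star (isotig02075, 391 bases). It was higher in hibernation in both bears, the opposite of SCD, with a mean log2 change of 0.66 (adjusted p = 0.631, limma). FADS3, a gene of the FADS1 family, was at 7.11, 7.42, 3.00 and 4.69 RPKM in that order (mean log2 change 0.31, adjusted p = 0.810, limma), and in Tia its direction turned under both scalings. ELOVL7, an elongase of long chains, was at 5.87, 9.43, 3.86 and 6.81 RPKM (mean log2 change 0.69, adjusted p = 0.597, limma).

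In glycerolipid synthesis 5 of 17 genes were listed, 2 lower and 0 higher in hibernation in both bears, and 4 lower under either scaling. Among all named genes 16.1% were lower in both bears, and 31.2% and 34.6% under the 2 scalings. GPAM, the acyltransferase that starts triglyceride synthesis, was the gene past a call rule, with a score of 0.879 (isotig29824). It was at 16.0 RPKM in active Tia, 5.94 in hibernating Tia, 2.78 in active Star and 1.67 in hibernating Star (mean log2 change -0.98, adjusted p = 0.738, limma). Its shorter transcript (isotig38125) was lower in hibernation in Tia, at 2.48 against 1.00 RPKM, and higher in Star, at 2.08 against 2.79 RPKM. The call was lost without the active library of Tia or the hibernating library of Star.

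Cholesterol synthesis and uptake was represented by 9 of 29 genes. Hibernating levels were above active ones in both bears for 6 genes and below for 2 (5 and 4 under either scaling), against 48.7% of all named genes above and 16.1% below. None passed a call rule, and the median of the mean log2 changes was 0.29. The largest were those of IDI1, an isomerase of isoprenoid units, from 30.4 to 45.2 RPKM in Tia and from 36.4 to 57.1 RPKM in Star (mean log2 change 0.60, adjusted p = 0.592, limma), MVD and FDFT1. MVD, the mevalonate diphosphate decarboxylase, was at 12.6 against 15.7 RPKM in Tia and 11.8 against 20.9 RPKM in Star. FDFT1, squalene synthase, was at 10.8 against 15.8 and 10.999 against 16.2 RPKM. These 3 were higher in hibernation in both bears under each scaling.

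Among SREBPs and other lipogenic regulators 15 of 29 genes were listed, with 9 higher and 0 lower in hibernation in both bears (7 and 2 under median-ratio scaling, 7 and 4 under upper-quartile scaling). The 9 are 60% of the listed genes, against 48.7% higher over all named genes. The median of the mean log2 changes was 0.29, and no gene passed a call rule. SREBF2, the SREBP that mainly serves cholesterol synthesis, was at 4.89 RPKM in active Tia, 7.88 in hibernating Tia, 6.73 in active Star and 7.23 in hibernating Star, and in Star its direction turned under both scalings. SCAP, the escort that INSIG1 binds, was at 5.43, 7.07, 5.98 and 7.09 RPKM in that order. SREBF1 and INSIG2 were not analysed here. By the transcript with the most reads, the largest mean log2 changes were those of PPARGC1B (0.54), a coactivator of SREBPs, NFYB (0.50), a subunit of the CCAAT-binding factor, and RXRB (0.48), a partner of nuclear receptors. A shorter transcript of NR1H2 (isotig25321), which encodes a liver X receptor and is named here after its values were seen, had a larger one of 0.93 and a score of 0.798, just under the threshold. Of 8 genes of ketone body use, SLC16A1 and BDH2 were listed. SLC16A1, a carrier of lactate and ketone bodies, was at 11.2 against 5.997 RPKM in Tia and 5.38 against 6.80 RPKM in Star. BDH2 was at 37.2 against 38.0 and 33.0 against 49.7 RPKM, with a direction in Tia that turned under both scalings.

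**Figure D5:**
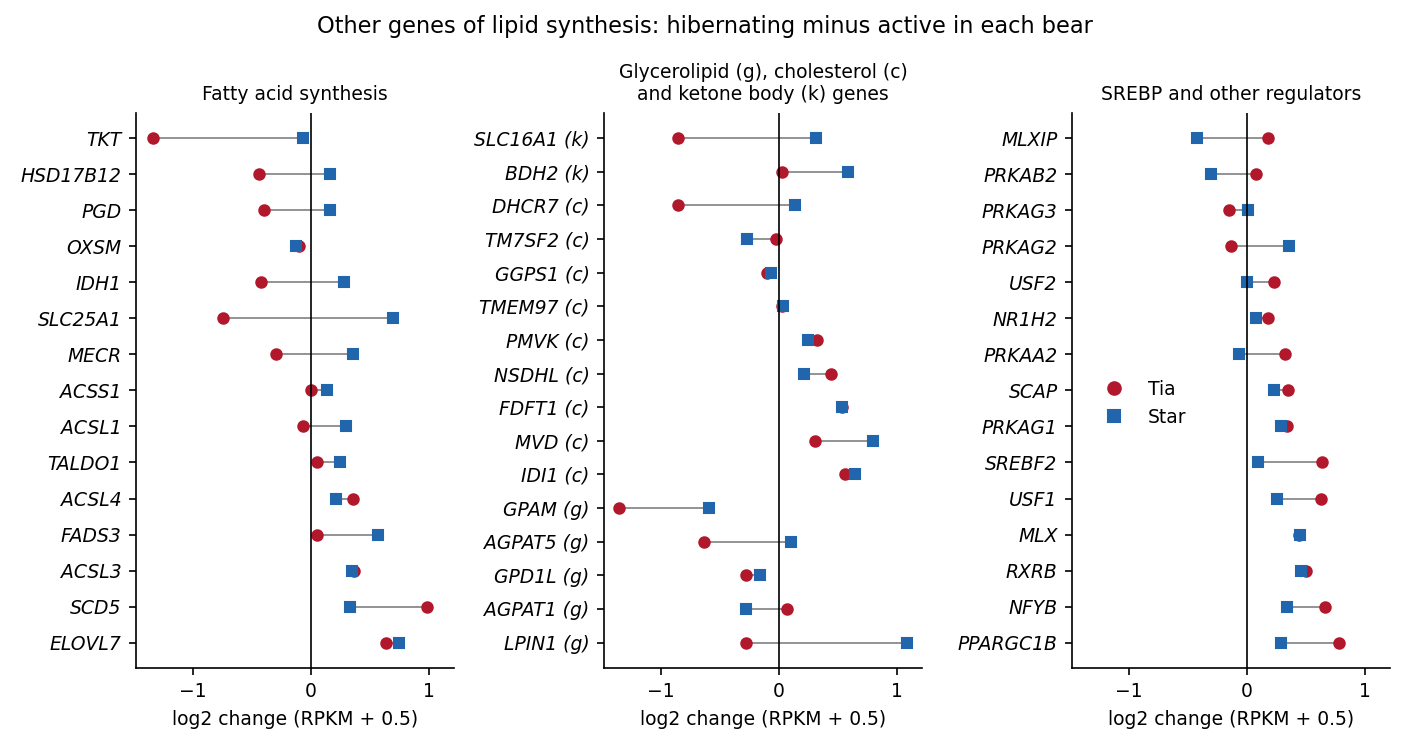
Log2 change, hibernating minus active on the scale of log2(RPKM + 0.5), in Tia (red circles) and Star (blue squares) for each listed gene of fatty acid synthesis (left), of glycerolipid, cholesterol and ketone body metabolism (middle) and of SREBPs and other regulators (right), by the transcript with the most reads. TKT and GPAM lie lowest, IDI1, MVD, FDFT1 and ELOVL7 lie above 0 in both bears, and several genes lie on opposite sides of 0.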

How the data were processed

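Poly(A) RNA of the muscle was converted to full-length cDNA and sequenced as single-end Illumina reads, 1 library per bear and state. Per the study's methods, the authors assembled transcripts de novo from 454 and paired-end Illumina reads, named them by BLAST against human proteins, mapped single-end reads onto these by SOAP2, and deposited each transcript's RPKM and length. How reads that match several transcripts were shared out is not given in the sources used here. Both bears share 1 labelled single-end sample in each state, and column names tell them apart. The labels describe nuclease normalization of cDNA for 454 libraries, and whether it reached the single-end libraries is not given in the sources used here.

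Log2(RPKM + 0.5) was compared between states by limma 3.58.1 (R 4.3.3) with a trend in the prior variance and p-values adjusted by Benjamini-Hochberg over 26614 transcripts. A score after the description of NOISeq, a fold of 2 in both bears and exact 95% intervals from recovered reads were added. The intervals cover counting error only. The animal pairs the libraries, but the main fit took them as unpaired, and the animal as block was an alternative. Over all transcripts the difference between the bears in activity and in hibernation had a Pearson r of 0.36. The members, gene lists and markers were chosen with earlier results of these data known. Named genes were all members, listed genes past a call rule or otherwise the 3 with the largest mean change of a list, chosen relatives (SCD5, FADS3, SREBF2, SCAP, INSIG2), and the 5 genes most like SCD and FASN. Alternatives were the pseudocount (0.1 and 1), 2 scalings, a mean RPKM of 5, named transcripts alone, a prior without trend, the animal as block, a score of 0.9, a fold of 1.5, sums over a gene's transcripts, and each library or bear left out. Both methods were also run on simulated data in which the 2 bears changed alike. Such data do not show how the methods treat a change that lies mostly in Tia. Intervals used scipy 1.17.1 and plots matplotlib 3.10.9, both under Python 3.11.15, with numpy 2.4.6 and pandas 2.3.3 for the tables.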

Additional observations from a re-analysis of the deposited data

How the results depend on the processing

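The changes of SCD, FASN, AACS and INSIG1 were lower in hibernation under all alternatives run, with mean log2 changes of -5.45 to -1.29, -4.84 to -0.67, -1.05 to -0.37 and -0.49 to -0.08. That of FADS1 was -0.34 and ranged from -0.71 to 0.033 with a library left out, positive without the hibernating library of Tia. That of ACSS2 was 0.15, turned to -0.0084 under median-ratio and -0.045 under upper-quartile scaling, and ranged from -0.20 to 0.50 with a library or bear left out, negative without the hibernating library of Star (-0.20) and without Star (-0.18). No member had an adjusted p under 0.05 under any alternative. With the animal as replicate block the log2 change of SCD was again -3.37 (adjusted p = 0.236, limma). No transcript reached an adjusted p under 0.05 with the block, and the score and the fold do not use it. The block, the prior without trend, the filters on transcripts and the sums left the members' log2 changes as they were. A mean RPKM of at least 5 left FADS1 and INSIG1 out.

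Members with a score of 0.8 numbered 2 and ranged from 1 to 3 with a library left out. Members at least 2-fold lower in both bears numbered 1, and 2 under median-ratio scaling, upper-quartile scaling or a fold of 1.5. Over the whole table, transcripts with an adjusted p under 0.05 ranged from 0 to 35 with a library left out, the 35 without the hibernating library of Star. Those called lower by the score numbered 322, and 534 and 556 under the 2 scalings, 173 at a mean RPKM of at least 5, 152 of named transcripts, 108 at a score of 0.9, and 174 to 831 with a library left out. Those 2-fold lower in both bears numbered 76, and 125 and 138 under the 2 scalings, 38 of named transcripts and 317 at 1.5-fold. The calls of TKT and GPAM gave 1 gene lower each, and 0 at a mean RPKM of 5, at a score of 0.9, or by the fold on summed transcripts; with a library left out each ranged from 0 to 1. Genes called higher ranged from 0 to 1 in fatty acid synthesis, 0 to 2 in cholesterol synthesis and 0 to 1 among regulators with a library left out, and were 1 at 1.5-fold in fatty acid synthesis and, among regulators, 1 at 1.5-fold or with named transcripts alone. The causes were not tested. With 2 libraries per state, 1 library set much of the size of a change.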

Other observations

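More genes lay near the 4 members other than SCD and FASN in their values over the libraries. The distance grows with the size of a gene's changes, so genes that change little lie near many others. The counts thus do not compare the shapes of profiles. Within a distance of 0.25 of INSIG1, on the centred log2 scale, there were 193 of 4872 other genes, within that of FADS1 185, of ACSS2 88 and of AACS 20, against 0 for SCD and for FASN. The genes nearest to AACS, chosen after its values were seen, included DAAM2 and GCDH, the glutaryl-CoA dehydrogenase of lysine breakdown, at 11.1 and 5.53 RPKM in active and hibernating Tia and 11.4 and 8.44 RPKM in Star. Nearest to ACSS2 lay SHROOM2 and PLIN4, the perilipin named above as a fat cell marker, at 71.2 and 62.3 RPKM in active and hibernating Tia and 76.8 and 105 RPKM in Star. Of all transcripts, 15 were at least 10-fold higher in Tia than in Star when active, and 0 when hibernating, while 12 were at least 10-fold higher in Star when active and 2 when hibernating. SCD and FASN were among the 15, as were 2 transcripts of COL1A1, the S100B transcript, RAP2C and a TTN transcript (contig00038). The rest of the 15 carry no gene name. Another COL1A1 transcript (isotig43664) was higher in hibernation, with a mean log2 change of 0.70, so transcripts named for that gene went different ways.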
